A study of Mus musculus with 8 samples.

Results

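The 10 genes described here encode the parts of store-operated calcium entry and the NFAT transcription factors that it switches on. They are Orai1, Orai2, Stim1, Stim2, Itpr1, Itpr2, Itpr3, Nfatc1, Nfatc2 and Nfatc3, chosen by gene symbol for their role from the 24421 gene symbols in each count file. All 10 were present and all 10 passed the filter on low counts, with 1557 to 20838 reads each in every library.

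The 8 RNA-seq libraries, 4 titled E1KO and 4 titled E1WT, were made from naive CD4+ T cells that a naive T cell kit had enriched from mouse spleen. The study removed PCBP1 (also called hnRNP E1), an RNA-binding protein, through a floxed Pcbp1 gene and a Cre recombinase under the Cd4 promoter, which acts in T cells from their development in the thymus onward. All mice are given as male C57BL/6 animals 6 to 8 weeks of age. The genotype fields state the reverse of the titles. The E1KO libraries are given there as Pcbp1+/+Cd4-Cre (WT) and the E1WT libraries as Pcbp1fl/flCd4-Cre (KO), so that by these fields the controls carry Cd4-Cre too. The protocol calls the controls wild-type.

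Pcbp1 itself stood at 39.7 ± 1.57 CPM (gene counts scaled to the size of each library) in E1KO libraries and 224 ± 16.3 CPM in E1WT libraries (SD, n = 4 each). This level fits the titles rather than the genotype entries, so libraries are called by title, and every fold is E1KO over E1WT. Xist, transcribed from the inactive X chromosome of female cells, was at 365 to 426 CPM in E1KO libraries and 0.550 to 2.89 CPM in E1WT libraries. The Y-linked Ddx3y was at 52.0 to 57.5 CPM in E1KO libraries, 50.1% of its level in E1WT libraries. These values go against the label of male mice for the E1KO libraries, and since they separate the titles in all 8 libraries, the effect of genotype and this signal cannot be told apart in any result below. The labels number the replicates without saying whether each is its own mouse, so the spread that the p-values rest on may be technical. Libraries held 28264655 to 36738202 gene counts, and T cell markers (Cd3e, Cd3d, Cd3g, Cd4 and Lck) summed to 2275 to 2458 CPM in E1KO libraries and 2739 to 2939 CPM in E1WT libraries, with 3 of the 5 lower. Reads assigned to no gene were 28.2% to 30.8% of the counts in E1KO files and 33.3% to 37.0% in E1WT files, with no overlap, and the part of this in the results was not tested.

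When a T cell receptor is engaged, phospholipase C makes inositol trisphosphate, which opens IP3 receptors in the endoplasmic reticulum and lets the stored calcium out. STIM proteins sense the emptied store and open ORAI channels in the plasma membrane. The calcium that enters through them activates calcineurin, a phosphatase that strips phosphate from NFAT proteins, which then move into the nucleus and turn on cytokine and activation genes. Human patients without functional ORAI1 or STIM1 have T cells that fail to respond, and cyclosporin and tacrolimus suppress immunity by blocking calcineurin.

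Itpr2, Itpr3 and Nfatc1 were lower in E1KO libraries, and the other 7 members did not pass the test. Of the 10 members, 3 fell and 0 rose at an adjusted p below 0.05 (edgeR quasi-likelihood test, Benjamini-Hochberg adjustment over 13333 genes). Across all genes tested 23.3% were called by the same rule, 11.1% as lower and 12.2% as higher. DESeq2 and limma-voom also called 3 members lower and 0 higher. At an unadjusted edgeR p below 0.05, 4 were lower, with Stim1 just inside that limit, and 0 were higher. The median log2 fold of the members was -0.16, against 0.007 for all genes. Of the 10 folds 9 were negative, where 6542 of the 13333 folds of all genes were negative. Values in some libraries followed exon length, as described below. With that trend removed, the log2 folds of Itpr1 and Nfatc3 were positive, at 0.035 and 0.093. The median size of the fold, regardless of sign, was 0.16 for the members and 0.18 for all genes. For 4 members (Itpr2, Itpr3, Nfatc1 and Orai2) every E1KO library lay below every E1WT library. Among all genes 26% had no overlap between the titles, 12.1% with E1KO lower.

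The stretches just upstream of Itpr2 and Itpr3 are shown because these IP3 receptor genes, which lie on different chromosomes, both fell. Each is 250 bases long, ends at the first base before the annotated start of the gene in RefSeq (GRCm38.p6), is written 5′ to 3′ on the gene's own strand, and has each GC box (GGGCGG, read on both strands) in capitals. The Itpr2 stretch is chr6:146502224-146502473 on the minus strand and the Itpr3 stretch is chr17:27057054-27057303 on the plus strand.
Itpr2: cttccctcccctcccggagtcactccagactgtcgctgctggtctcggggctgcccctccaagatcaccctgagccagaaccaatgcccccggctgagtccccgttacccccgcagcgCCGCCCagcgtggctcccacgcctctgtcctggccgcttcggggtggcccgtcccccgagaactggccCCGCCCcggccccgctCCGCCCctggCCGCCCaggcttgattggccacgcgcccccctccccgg
Itpr3: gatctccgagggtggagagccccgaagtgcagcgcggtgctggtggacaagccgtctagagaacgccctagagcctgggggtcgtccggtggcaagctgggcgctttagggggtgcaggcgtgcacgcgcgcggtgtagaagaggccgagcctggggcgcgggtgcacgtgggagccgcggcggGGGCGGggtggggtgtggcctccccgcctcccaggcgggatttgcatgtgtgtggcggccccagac
Itpr2 had 4 GC boxes in its stretch and Itpr3 had 1, and 32.7% of the 32851 RefSeq upstream windows of this length hold at least 1. Both are rich in G and C, at 74.4% for Itpr2 and 72.0% for Itpr3, where the median window has 52.4%. A TATA box (TATAAA, either strand) occurred in neither, against 12.4% of windows. The NFAT core letters GGAAA (either strand) also occurred in neither, against 55.6% of windows. Windows were matched for 8 of the 10 members, all but Itpr1 and Nfatc1. Orai1, Stim1 and Stim2, which did not pass the test, have windows of the same kind, with 3, 8 and 3 GC boxes.

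The IP3 receptors are the channels that release calcium from the store, and Itpr2 and Itpr3 had the largest folds among the members while Itpr1 was not called. Itpr2 had 286, 238, 208 and 224 CPM in E1KO libraries 1 to 4, against 379, 311, 384 and 462 CPM in E1WT libraries 1 to 4. Every E1KO library lay below every E1WT library, and the nearest pair was E1KO 1 and E1WT 2. The mean was 239 ± 33.8 CPM in E1KO libraries and 384 ± 61.9 CPM in E1WT libraries (SD, n = 4 each), with a log2 fold of -0.68 ± 0.12 (SE, adjusted p = 0.00193 in edgeR). That left 62.3% of the E1WT level. Itpr2 encodes the receptor subtype that is most sensitive to inositol trisphosphate, and the gene spans chromosome 6 from 146108299 to 146502223 on the minus strand (GENCODE M21, GRCm38).

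Itpr3 had 288, 276, 247 and 258 CPM in E1KO libraries, against 376, 341, 369.5 and 418 CPM in E1WT libraries. There was no overlap, and 341 CPM in E1WT 2 was the lowest of its group. The mean was 267 ± 18.1 CPM in E1KO libraries and 376 ± 31.9 CPM in E1WT libraries, with a log2 fold of -0.49 ± 0.07 (adjusted p = 0.000586 in edgeR), or 71.1% of the E1WT level. Itpr3 lies on chromosome 17 from 27057304 to 27122223 on the plus strand. Its annotated antisense gene Itpr3os shares 233 bp of exon with it, and since strand use is not given in the sources used here, reads from that stretch cannot be assigned to either gene.

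Itpr1 is the subtype best known from neurons and is also used by lymphocytes. Its values were 144, 133, 113 and 119.7 CPM in E1KO libraries, against 148, 117, 138 and 178 CPM in E1WT libraries. The groups overlapped, and E1WT 2 and E1WT 3 fell among the E1KO values. The log2 fold was -0.19 ± 0.12 (adjusted p = 0.27 in edgeR), and it was 0.04 ± 0.06 with the trend on exon length removed. Itpr1 runs along chromosome 6 from 108213096 to 108551109.

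**Figure D1:**
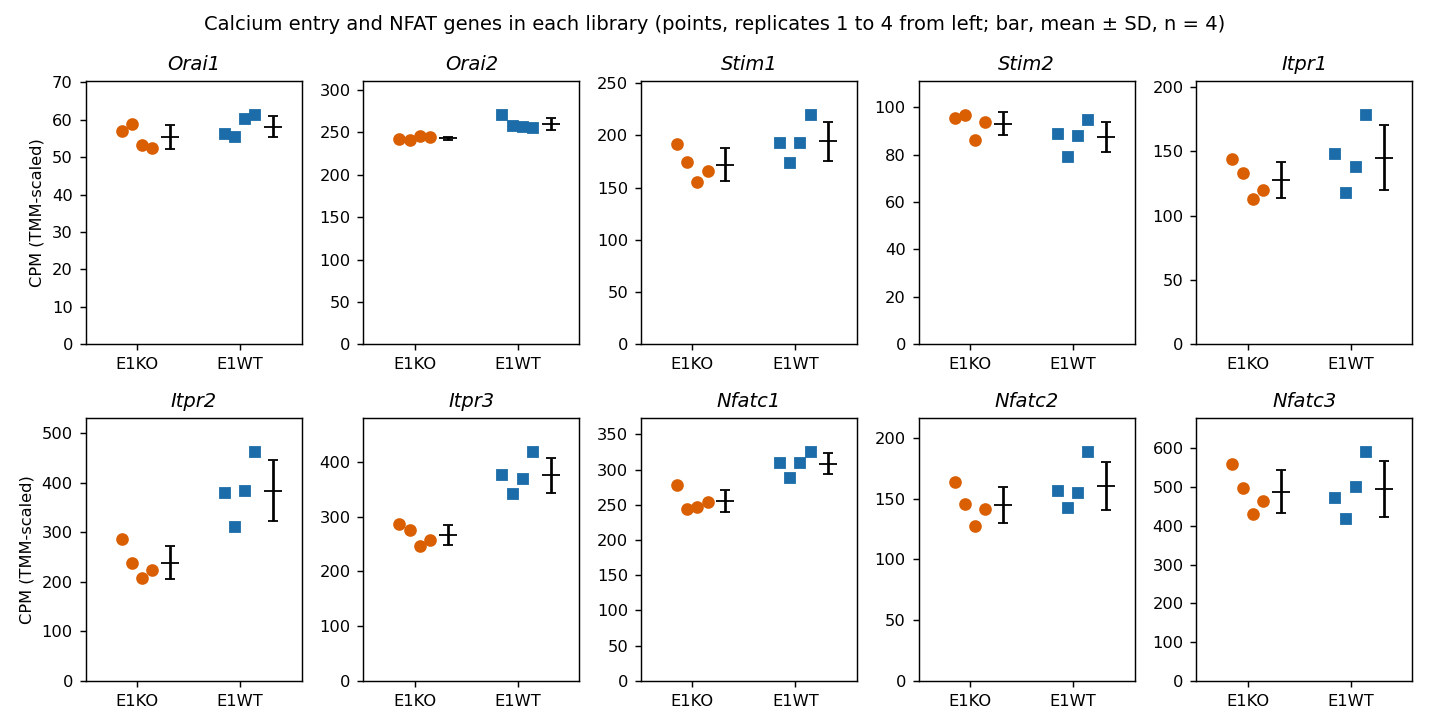
TMM-scaled CPM of each of the 10 members (vertical axes, each starting at 0) in the 4 E1KO libraries (circles) and the 4 E1WT libraries (squares), with replicates 1 to 4 from left to right and the mean ± SD as a bar. Itpr2, Itpr3, Nfatc1 and Orai2 show no overlap between the titles, and Itpr2 has the widest gap between the means, at 239 and 384 CPM.

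In each title, 1 library stood high and 1 low for most members. E1KO 1 was the highest E1KO library for 7 of the 10 members and E1KO 3 the lowest for 7, while E1WT 4 was the highest E1WT library for 9 members and E1WT 2 the lowest for 9. Over all tested genes these shares were 30.2% and 30.6%, and 33.1% and 31.7%. The members have 2.29 to 18.3 kb of merged exon, and in some libraries values followed exon length. Exon length was correlated across genes with log2 CPM, each gene centred on its mean (Spearman). The correlation was 0.22 in E1KO 1 and -0.32 in E1KO 3, and it was 0.32 in E1WT 4 and -0.26 in E1WT 2. In the other libraries it was -0.01 (E1KO 2), -0.23 (E1KO 4), 0.08 (E1WT 1) and 0.09 (E1WT 3). The part of exon length in the order of the libraries was not tested. With the trend on exon length removed, the log2 folds of Itpr2, Itpr3 and Nfatc1 were -0.52, -0.43 and -0.24. All 3 passed (adjusted p = 5.11e-05, 1.32e-05 and 0.00161 in edgeR). Without E1KO 1 and E1WT 4 they were -0.69, -0.48 and -0.29, and all 3 passed as well.

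Measured per length, the IP3 receptors together had less transcript in E1KO libraries and a different make-up. Summed CPM per kilobase of merged exon for the 3 genes was 52.7 ± 4.97 in E1KO libraries and 75.5 ± 9.07 in E1WT libraries, with ranges of 47.6 to 59.1 and 65.2 to 87.3. Itpr1 made up 12.9% to 13.4% of that sum in E1KO libraries and 9.82% to 11.1% in E1WT libraries, so that its share was higher in every E1KO library although its own level was not called. Itpr2 had a share of 30.5% ± 1.48 in E1KO libraries and 34.2% ± 1.51 in E1WT libraries, and E1KO 1 lay above E1WT 2. Itpr3 was the largest part in both, at 53.9% to 57.5% in E1KO libraries and 53.1% to 57.9% in E1WT libraries. Parts of 1 sum depend on each other, so the Itpr1 share rises where Itpr2 and Itpr3 fall. Itpr1 also has the longest merged exons of the 3 genes, at 18319 bp, against 14802 bp for Itpr2 and 9019 bp for Itpr3. These shares are descriptions and were not tested. How often shares of other genes separate the titles was not tested either.

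The store sensors STIM1 and STIM2 did not pass the test, and their folds had opposite signs. Stim1, the main sensor that gates ORAI1 after receptor stimulation, had 192, 174, 155 and 166 CPM in E1KO libraries, against 193, 174, 192 and 219 CPM in E1WT libraries. The groups overlapped through E1WT 2, which lay below E1KO 1 and E1KO 2. The log2 fold was -0.18 ± 0.08 (adjusted p = 0.139 in edgeR), and without E1KO 1 it was -0.24 with an adjusted p of 0.0498, which passes. Stim2, which senses small drops in store calcium and keeps resting calcium steady, had 95.6, 96.6, 86.0 and 94.0 CPM in E1KO libraries, against 88.8, 79.0, 87.8 and 94.5 CPM in E1WT libraries. Its groups overlapped, with a log2 fold of 0.09 ± 0.06 (adjusted p = 0.356 in edgeR). Shares within a library cancel out its scaling but not a trend on exon length. Stim1 made up 46.7% to 49.9% of the summed STIM transcript per kilobase in E1KO libraries. In E1WT libraries it made up 51.9% to 53.5%, with no overlap. How often other pairs of genes separate in this way was not tested. Merged exons hold 10371 bp for Stim1 and 5133 bp for Stim2. With the exon-length trend removed, the log2 folds were -0.09 for Stim1 and 0.07 for Stim2. The 2 folds were not tested against each other.

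The channel subunits differed little. Orai1, the pore subunit of the calcium release-activated channel, had 57.1, 59.0, 53.2 and 52.4 CPM in E1KO libraries, against 56.2, 55.3, 60.1 and 61.2 CPM in E1WT libraries. The groups overlapped, and the log2 fold was -0.07 ± 0.06 (adjusted p = 0.451 in edgeR). Orai2, a subunit that in mouse T cells forms mixed channels with ORAI1 and lowers their current, had 242, 242, 245 and 244 CPM in E1KO libraries, against 270.2, 257, 256 and 255 CPM in E1WT libraries. All 4 E1KO libraries lay below all 4 E1WT libraries, but the difference was small. The log2 fold was -0.09 ± 0.05 (adjusted p = 0.171 in edgeR). Orai2 made up 62.4% ± 1.48 of the summed Orai1 and Orai2 transcript per kilobase in E1KO libraries and 62.8% ± 1.59 in E1WT libraries, a difference smaller than the spread. The sum of both was 63.0 to 65.5 CPM per kilobase in E1KO libraries and 66.4 to 69.0 CPM per kilobase in E1WT libraries, lower in all 4 E1KO libraries.

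Of the NFAT factors, which bind DNA with AP-1 at cytokine promoters, Nfatc1 fell. It had 278, 244, 246 and 254 CPM in E1KO libraries, against 309.8, 289, 309 and 325 CPM in E1WT libraries. The groups did not overlap, and the nearest pair was again E1KO 1 and E1WT 2. The mean was 256 ± 15.6 CPM in E1KO libraries and 308 ± 14.9 CPM in E1WT libraries, with a log2 fold of -0.27 ± 0.06 (adjusted p = 0.00778 in edgeR), or 83.0% of the E1WT level. Nfatc1 (chromosome 18, 80606205 to 80713071, minus strand) encodes NFAT2, whose short form is induced by NFAT itself during activation, and counts per gene do not separate its forms.

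Nfatc2 and Nfatc3 did not pass the test. Nfatc2, which encodes NFAT1, the factor held ready in the cytoplasm of resting T cells, had 163, 146, 128 and 141 CPM in E1KO libraries, against 157, 142, 154 and 188 CPM in E1WT libraries. Nfatc3, which encodes NFAT4 and acts in thymocyte development, had 560.4, 498, 431 and 465 CPM in E1KO libraries, against 472, 417, 501 and 590.5 CPM in E1WT libraries. Both pairs of groups overlapped widely, with log2 folds of -0.15 ± 0.09 for Nfatc2 and -0.02 ± 0.11 for Nfatc3 (adjusted p = 0.273 and 0.922 in edgeR). The sign for Nfatc3 was positive without E1KO 3, E1KO 4 or E1WT 4 and with the exon-length trend removed. Per kilobase, Nfatc1 made up 36.8% to 40.3% of the summed NFAT transcript in E1KO libraries and 39.0% to 44.1% in E1WT libraries, and these ranges overlapped. The end of Nfatc3 shares 219 bp with Esrp2 on the other strand, a gene at 1.67 ± 0.40 CPM in E1KO libraries and 1.37 ± 0.31 CPM in E1WT libraries.

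**Figure D2:**
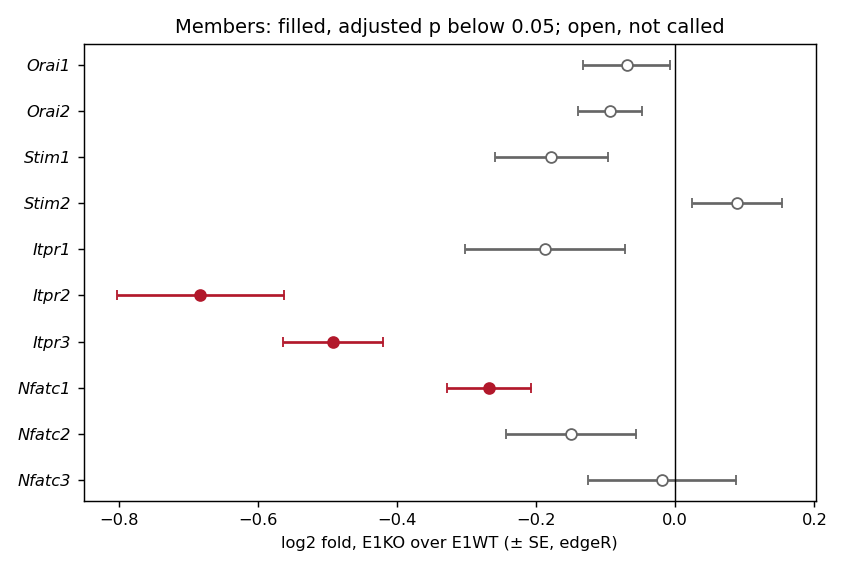
Log2 fold of each member, E1KO over E1WT, with its standard error from edgeR (horizontal axis); filled points passed an adjusted p of 0.05. Itpr2, Itpr3 and Nfatc1 lie left of 0 at -0.68, -0.49 and -0.27, and the other 7 members have open points between -0.19 and 0.09.

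**Figure D3:**
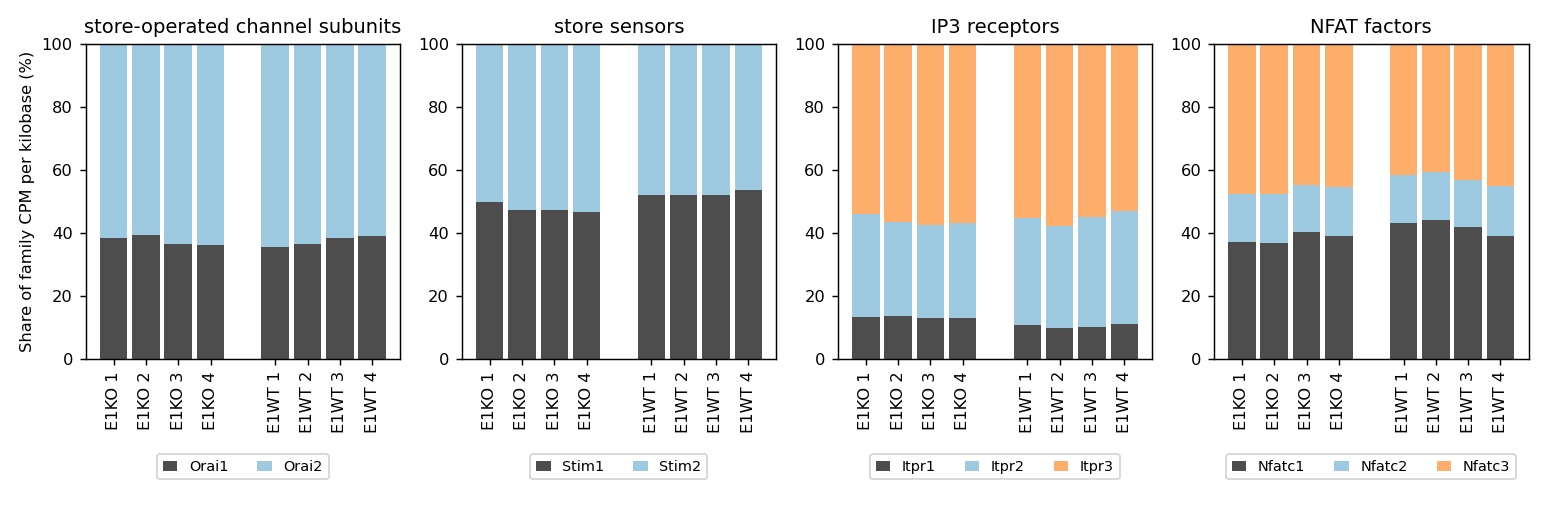
Share of each member in the summed CPM per kilobase of its family (vertical axis, percent), 1 bar per library, E1KO libraries left of E1WT libraries. The Stim1 part of the sensors is 46.7% to 49.9% in E1KO libraries and 51.9% to 53.5% in E1WT libraries, and the Itpr1 part of the IP3 receptors is 12.9% to 13.4% and 9.82% to 11.1%.

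Per kilobase of merged exon, the members covered a wide range of levels, and their order differed between the titles. In E1KO libraries the level was highest for Nfatc3 (41.7 ± 4.70 CPM per kilobase) and Orai2 (40.0 ± 0.289), which overlapped, followed by Nfatc1 (34.2 ± 2.09), Itpr3 (29.6 ± 2.01) and Orai1 (24.1 ± 1.36), each apart from its neighbours. Stim2 (18.1 ± 0.937), Stim1 (16.6 ± 1.49), Itpr2 (16.2 ± 2.28) and Nfatc2 (13.7 ± 1.39) then followed, each overlapping the next, and Itpr1 was lowest at 6.96 ± 0.759 CPM per kilobase. In E1WT libraries Orai2 (42.7 ± 1.16), Nfatc3 (42.2 ± 6.18), Itpr3 (41.7 ± 3.54) and Nfatc1 (41.2 ± 1.99) were not apart from one another. Itpr2 (25.9 ± 4.18) and Orai1 (25.4 ± 1.26) came next and overlapped, then Stim1 (18.8 ± 1.80), Stim2 (17.1 ± 1.25) and Nfatc2 (15.1 ± 1.86), each overlapping the next, and Itpr1 (7.92 ± 1.38) was lowest again. The place of a gene in this order depends on the length used. With the longest transcript in place of merged exons, Stim1 moved up to the fourth place in both titles, since its merged exons hold 10371 bp and its longest transcript 4362 bp.

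**Figure D4:**
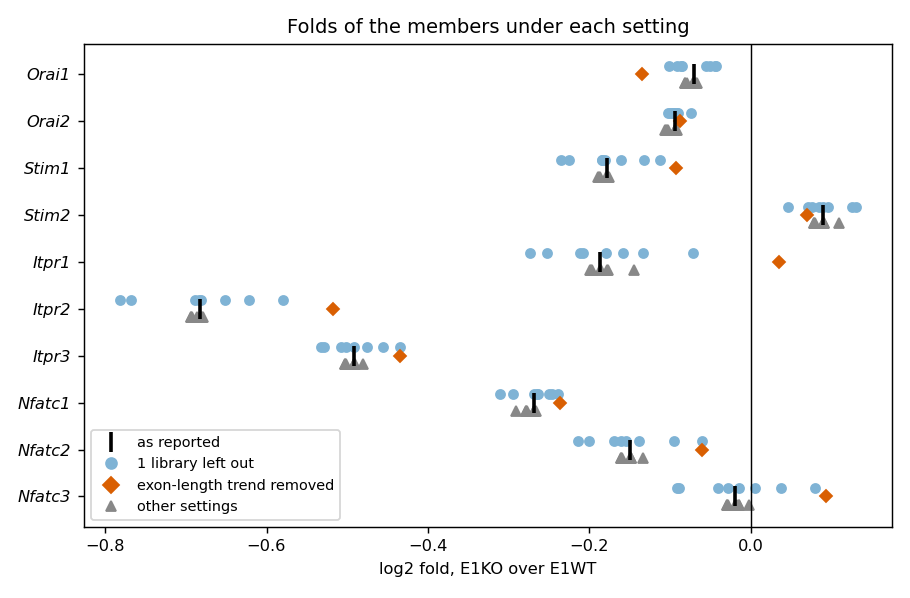
Log2 fold of each member, E1KO over E1WT (horizontal axis), as reported (black bars), with 1 library left out (circles), with the exon-length trend removed (diamonds) and under the other settings (triangles). Itpr2, Itpr3 and Nfatc1 stay between -0.78 and -0.24 in all settings, while the points of Nfatc3 lie on both sides of 0 and the diamond of Itpr1 lies at 0.04.

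The genes whose library profiles were most like those of the channel and the sensor were sought by the root-mean-square difference of centred log2 CPM over the 8 libraries. For Orai1 they were Ifi203, Map3k7 and Senp6, with differences of 0.021, 0.024 and 0.025 on the log2 scale, among 12425 genes. For Stim1 they were Stk4, Celf2 and Numa1, with differences of 0.020 each, among 11433 genes. Ifi203 belongs to a family of close copies, so its counts are uncertain. Profiles of this kind hold both the difference between titles and the spread between libraries.

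The other genes of the pathway went both ways. Of 104 genes in 9 lists, 97 were tested, and 10 rose and 19 fell, with a median log2 fold of -0.03. Over all genes tested 12.2% rose and 11.1% fell, which is the background for this count and for those of the lists below. Without any 1 library the counts ranged from 4 to 10 higher and from 13 to 21 lower. The lowest count of higher genes, 4, came without E1WT 1. It was 5 without E1KO 3, E1KO 4 or E1WT 3, and 6 without E1WT 4.

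**Figure D5:**
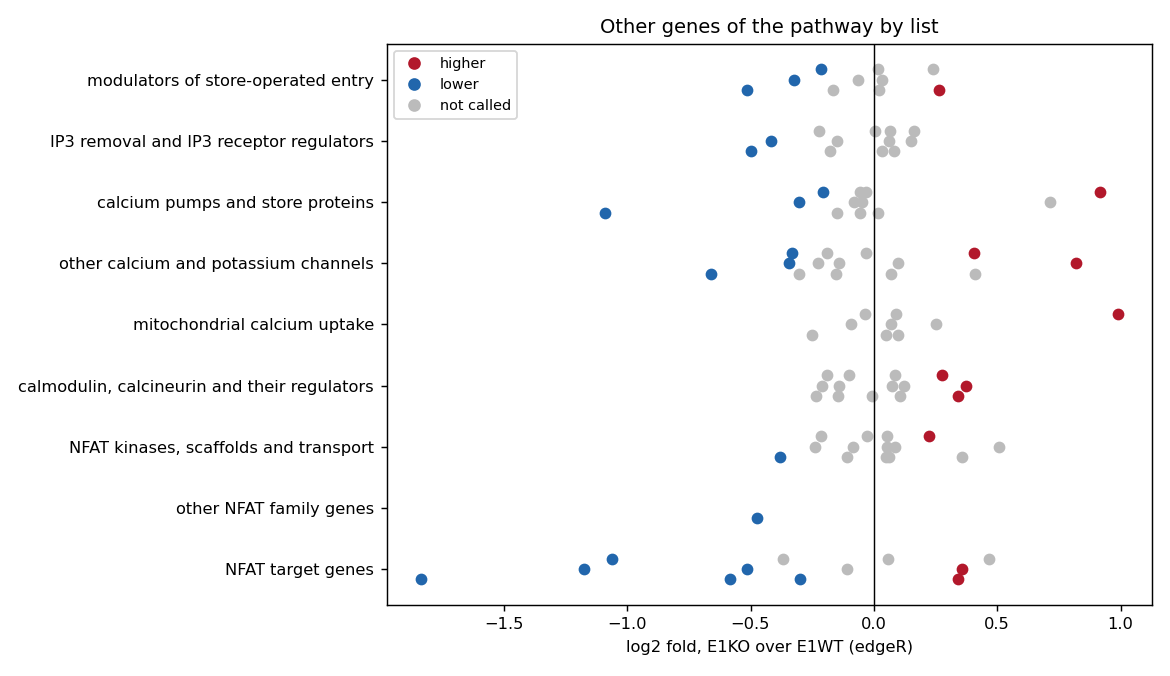
Log2 fold, E1KO over E1WT (horizontal axis), of each tested gene in the 9 lists of other pathway genes (rows), coloured by whether it rose, fell or was not called in edgeR. Of 12 tested NFAT target genes 6 are lower and 2 higher, with Il21 furthest left at -1.83.

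Among modulators of store-operated entry 1 of 10 tested genes rose and 3 fell. Cracr2a, which encodes a calcium-binding partner of ORAI1 and STIM1, fell (-0.52 ± 0.12 on the log2 scale, 7.90 CPM in E1KO libraries and 11.3 CPM in E1WT libraries, adjusted p = 0.0106 in edgeR). Esyt1 and Esyt2, extended synaptotagmins that tether the endoplasmic reticulum to the plasma membrane, fell by 0.21 ± 0.07 and 0.32 ± 0.10. Each lost its call without any 1 of E1KO 2, E1KO 3, E1KO 4, E1WT 1, E1WT 3 and E1WT 4, at adjusted p values of 0.0539 to 0.0982 in edgeR. Slc35g1, a STIM1 partner, rose by 0.26 ± 0.07, and its call was lost without E1WT 1 or E1WT 3 (0.0602 and 0.0651).

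Regulators of IP3 and its receptors showed 2 of 12 lower and 0 higher. At an unadjusted p below 0.05 another 2, Itpkb and Inpp1, chosen after their values were seen, were also on the lower side and 0 were higher. DESeq2 and limma-voom called 0 higher as well. Tespa1, a thymocyte protein that links IP3 receptors to receptor signalling, had 44.4, 51.4, 47.5 and 52.7 CPM in E1KO libraries, against 62.6, 75.1, 70.0 and 68.5 CPM in E1WT libraries. The groups did not overlap, and the log2 fold was -0.50 ± 0.07 (adjusted p = 0.000687 in edgeR). Itpripl2, a relative of an IP3 receptor-interacting protein, had a log2 fold of -0.42 ± 0.13. It lost its call without any 1 of E1KO 1, E1KO 2, E1KO 3, E1WT 1, E1WT 3 and E1WT 4 (0.0542 to 0.101).

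Calcium pumps and store proteins had 1 of 12 higher and 3 lower. Atp2b1, a plasma membrane calcium pump, fell by 0.30 ± 0.06 (adjusted p = 0.00364 in edgeR). With the exon-length trend removed its log2 fold was -0.13 (adjusted p = 0.0432 in edgeR). The calcium buffer of the store, Calr, fell by 0.20 ± 0.06, and the muscle pump Atp2a1 by 1.09 ± 0.30, to 2.87 CPM in E1KO libraries against 6.15 CPM in E1WT libraries. The call for Calr was lost without any 1 of E1KO 1, E1KO 2, E1KO 4, E1WT 1, E1WT 2 and E1WT 3 (0.0528 to 0.0842), and that for Atp2a1 without any 1 of E1KO 2, E1KO 3, E1KO 4, E1WT 1, E1WT 3 and E1WT 4 (0.0528 to 0.0682). The sodium-calcium exchanger Slc8a1 rose by 0.92 ± 0.21 at a low level (3.22 CPM in E1KO libraries, 1.70 CPM in E1WT libraries). The summed monocyte and macrophage markers were also higher, at 87.4 to 102 CPM in E1KO libraries and 41.2 to 48.7 CPM in E1WT libraries, and their part in this was not tested.

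Other channels had 2 of 14 higher and 3 lower. Kcna3 encodes Kv1.3, the potassium channel that keeps the membrane negative and so sustains calcium entry in T cells. It had 62.7, 50.0, 49.5 and 54.9 CPM in E1KO libraries, against 84.0, 74.5, 85.1 and 99.6 CPM in E1WT libraries, with no overlap and a log2 fold of -0.66 ± 0.10 (adjusted p = 0.000628 in edgeR). Trpm7, a channel fused to a kinase, fell by 0.34 ± 0.07, and the mechanosensitive Piezo1 by 0.33 ± 0.08. Cacnb3, a calcium channel beta subunit, rose by 0.40 ± 0.11, and its call was lost without E1KO 4 (0.0609). In the mitochondrial list 1 of 9 rose and 0 fell. It was Ccdc109b, now called Mcub, the inhibitory subunit of the mitochondrial uniporter, at 7.95 CPM in E1KO libraries and 4.01 CPM in E1WT libraries (log2 fold 0.99 ± 0.16, adjusted p = 0.000972 in edgeR). DESeq2 and limma-voom also called 0 lower there, and at an unadjusted edgeR p below 0.05 the count was 1, Micu3, named after its value was seen.

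Calmodulin, calcineurin and their regulators had 3 of 14 higher and 0 lower. At an unadjusted edgeR p below 0.05, 4 were lower, limma-voom called 0 lower and DESeq2 called 1, Ppp3cb. The catalytic calcineurin subunits Ppp3ca, Ppp3cb and Ppp3cc and the regulatory Ppp3r1, named after their values were seen, were not called in edgeR. Their log2 folds were 0.07 ± 0.10, -0.14 ± 0.05, -0.10 ± 0.06 and 0.11 ± 0.05, in that order. Chp1, a calcineurin B homologue, rose by 0.28 ± 0.05 (adjusted p = 0.00158 in edgeR). Rcan1, an inhibitor of calcineurin and itself an NFAT target, rose by 0.34 ± 0.10, and its call was lost without any 1 of E1KO 3, E1KO 4, E1WT 1 and E1WT 4 (0.0553 to 0.0835). Calm2 rose by 0.37 ± 0.12, near the threshold (0.0483). It lost its call without any 1 of E1KO 2, E1KO 3, E1KO 4, E1WT 1, E1WT 3 and E1WT 4 (0.0846 to 0.14) and in limma-voom (0.0506), and calmodulin has processed copies with which it can share reads.

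NFAT kinases, scaffolds and transport genes had 1 of 14 higher and 1 lower. Dyrk2, a kinase that phosphorylates NFAT, fell by 0.38 ± 0.08 (adjusted p = 0.00719 in edgeR). Csnk1e, a casein kinase 1, rose by 0.22 ± 0.07, and its call was lost without any 1 library other than E1WT 2 (0.0507 to 0.119) and with no filter on low counts (0.062). Nfat5, the tonicity-responsive relative that calcineurin does not control, had 158, 154, 129 and 128 CPM in E1KO libraries, against 189, 167, 202 and 232 CPM in E1WT libraries. The groups did not overlap, and the log2 fold was -0.47 ± 0.10 (adjusted p = 0.00702 in edgeR). With the exon-length trend removed it was -0.26 (adjusted p = 0.00204 in edgeR). Nfatc4 had 0 counts in all 8 libraries.

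Of 12 tested genes known as NFAT targets 6 fell and 2 rose, where 11.1% of all genes fell and 12.2% rose. Their median log2 fold was -0.34, against 0.007 for all genes. This list was chosen with earlier results of these data known, so its counts are not independent of them. Leaving out 1 library gave 4 to 6 lower and 0 to 2 higher, and limma-voom called 5 lower, without Ifng, which is named after its value was seen. Il21, a helper cytokine, had 1.87, 2.88, 1.57 and 2.16 CPM in E1KO libraries, against 7.58, 7.12, 7.65 and 7.93 CPM in E1WT libraries (log2 fold -1.83 ± 0.18). The death ligand Fasl fell by 1.17 ± 0.11, the CD40 ligand gene Cd40lg by 0.58 ± 0.07 and the transcription factor Egr3 by 0.51 ± 0.06. The largest edgeR adjusted p of these 4 was 0.000227, and no library of a title overlapped the other for any of them. Of the genes that rose, Rcan1 is given above. The other was Nr4a1, an immediate early gene named after its value was seen. Its log2 fold was 0.36 ± 0.10 (adjusted p = 0.0233 in edgeR). The Nr4a1 groups overlapped, with 59.13 CPM in E1KO 1 below 61.55 CPM in E1WT 2.

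Some lists of markers of other cells and states differed between the titles, and others did not. Regulatory T cell markers summed to 559 to 605 CPM in E1KO libraries and 403 to 463 CPM in E1WT libraries, with 3 of 5 higher. Of the 8 monocyte and macrophage markers 5 were higher. The 8 dendritic cell markers (6 higher) summed to 30.1 to 34.6 CPM in E1KO libraries and 14.7 to 19.1 CPM in E1WT libraries. The 6 erythroid markers (4 higher) summed to 109.8 to 142 CPM in E1KO libraries and 41.3 to 56.2 CPM in E1WT libraries. Of the macrophage markers Cd14 and C1qa were under 1 CPM in every library, as was Batf3 of the dendritic ones. B cell markers summed to 222 to 238 CPM in E1KO libraries and 209 to 239 CPM in E1WT libraries, and 5 naive T cell markers to 3858 to 3905 CPM in E1KO libraries and 4194 to 4311 CPM in E1WT libraries. The NK markers summed to 122 to 135 CPM in E1KO libraries and 111 to 121 CPM in E1WT libraries, with 2 of 5 tested higher (Eomes and Ncr1), while Klra8 and Klra4 had 0 counts in all libraries. The plasma cell markers summed to 829.8 to 1036 CPM in E1KO libraries and 570.5 to 779 CPM in E1WT libraries, with 1 of 5 higher (Jchain). Neutrophil markers summed to 38.6 to 44.3 CPM in E1KO libraries and 38.0 to 41.7 CPM in E1WT libraries. Of 6 tested, 1 was higher and 2 lower. CD8 T cell markers (1 of 2 lower) summed to 20.3 to 27.9 CPM in E1KO libraries and 25.45 to 31.0 CPM in E1WT libraries. Of 2 platelet and megakaryocyte markers tested 0 were called. In bulk RNA fewer cells of a type and less transcript per cell cannot be told apart, and the part of these markers in the differences of the members was not tested.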

How the data were processed

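The authors deposited raw read counts, given as whole numbers by symbol, for each of 8 libraries. Per the submitters' processing notes, TopHat2 2.1.0, HTSeq 0.9.1 and mm10 were used. No source used here gives the strand setting, annotation or filters. The 5 closing rows that name no gene, 28.2% to 30.8% of the counts in E1KO files and 33.3% to 37.0% in E1WT files, were left out. Reads that aligned to several places made up 11.1% to 12.0% in E1KO files and 12.6% to 13.2% in E1WT files. No pair of libraries with the same title agreed within sampling noise (chi-square per degree of freedom 4.20 to 64.4).

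The test across all genes was that of edgeR 4.0.16, run under R 4.3.3 (TMM scaling, count minimum 10, total count minimum 15, quasi-likelihood test, Benjamini-Hochberg adjustment, threshold 0.05), which was checked on simulated counts. CPM values are TMM-scaled, log2 CPM used a prior count of 2, and standard errors of log2 folds were derived from the F statistic. Exon lengths and positions come from GENCODE M21 (GRCm38, the assembly of mm10), in which 23376 symbols matched directly and 669 through an older symbol. Alternatives used DESeq2 1.42.0, limma 3.58.1 and other filters, scalings and sets of libraries. The replicate numbers were not used to pair the libraries in the main test.

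The members and lists were chosen with earlier results of these data known. Named genes are all members, up to 4 called genes with the smallest p in each pathway list (2 where none was called), and the 3 nearest profiles of Orai1 and Stim1. Others are said to be named after their values were seen.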

Additional observations from a re-analysis of the deposited data

Results flagged for a closer look

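In 70 groups of 4 libraries (35 genes in each title), 2 held a library far from the other 3, where chance gives about 1 in 20. Orai2 was at 270.2 CPM in E1WT 1, above 255 to 257 CPM in the other E1WT libraries. Slc35g1 was at 39.4 CPM in E1WT 2, above 34.7 to 35.4 CPM in the others.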

How the results depend on the processing

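Of 170 values of the 10 members under 17 alternatives, 164 kept their direction and side of the threshold. Itpr2, Itpr3 and Nfatc1 passed in every alternative, with edgeR adjusted p values of at most 0.0102, 0.0038 and 0.032 with 1 library left out. Stim1 passed only without E1KO 1. The sign turned for Itpr1 with the exon-length trend removed (0.035) and for Nfatc3 there (0.093) and without E1KO 3 (0.037), E1KO 4 (0.005) or E1WT 4 (0.079). None of these passed, and its folds with 1 library left out ran from -0.091 to 0.079. Members called lower numbered 3 to 4 with 1 library left out and 0 were higher. All genes then numbered 1194 to 1659 higher and 1010 to 1566 lower. Of the other pathway genes 4 to 10 were higher and 13 to 21 lower with 1 library left out, against 10 and 19. With the replicate block 4 were higher and 16 lower. Among the calls lost there, Slc35g1, Rcan1, Calm2 and Csnk1e had been higher, and Calr, Esyt1 and Esyt2 lower. With E1KO 1 and E1WT 4 left out together, 6 were higher and 20 lower. Of 424 values of named pathway genes 361 stayed on their side and 63 lost the call. With the longest transcript as length, 5 of 10 members kept their rank of level in E1KO libraries and 1 of 10 in E1WT libraries. The replicate number as a block gave 1151 genes higher and 1005 lower, against 1623 and 1485. Same-numbered libraries had correlations of -0.099 to 0.014 of their deviations from the title means. Pairs with different numbers reached -0.32 (E1KO 1 with E1WT 2) and 0.26 (E1KO 1 with E1WT 4). With 4 libraries per title, these values cannot settle whether a shared number marks a pair. Where not stated, the cause was not tested.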
